A study of Rattus norvegicus with 12 samples.

Results

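Kruppel-like factors are zinc finger proteins that bind GC-rich and CACCC boxes in promoters. They were described here through every probe set whose deposited gene symbol, without the endings _predicted or _mapped, was Klf2, Klf3, Klf4, Klf5, Klf6, Klf9, Klf10, Klf13 or Klf15. This choice of probe sets used names, not measured values, but the genes themselves were listed with earlier results of these data known. It found 20 of the 31096 probe sets, for 8 of the 9 genes, and no probe set stood under the symbol Klf13. Of the 20 probe sets, 8 were called present on all 12 arrays and 6 on none.

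The cells were OLN cells, a rat oligodendroglial cell line, and all of them, the mock cells included, stably expressed alpha-synuclein. After 24 h of growth they received, with the reagent Fugene-6, either pcDNA3.1 carrying p25alpha, also known as TPPP, which promotes tubulin polymerization in oligodendrocytes, or the empty vector, and RNA was taken at 8, 12 or 16 h. The groups were p25alpha cells at 8, 12 and 16 h and mock cells at 8, 12 and 16 h, with 1 Affymetrix rat array from each of 2 numbered experiments in each group. Nothing in the labels says whether the experiments were separate cultures, or whether the cells are 1 clone, so any p-value covers only array-to-array spread, possibly of technical origin.

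The family acts downstream of many signals, and its members are sorted by the partners they recruit. Klf9, Klf10 and Klf13 bind the corepressor Sin3A, Klf3 binds the corepressor CtBP, and Klf2, Klf4, Klf5 and Klf6 are mainly activators, some of which recruit acetyltransferases. In oligodendrocytes Klf6 and Klf9 are known for their part in differentiation and myelination, from work in mice and rats, and several members are induced within hours as early response genes.

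Values are MAS5 signals, linear intensities that the authors scaled to a common mean per array, with a detection call (present, marginal or absent). Present calls covered 49.3% to 55.2% of the probe sets per array, and the number of arrays, 2 a group, limits the precision. The oligodendrocyte lineage markers Sox10, Pdgfra and Cnp were present on all 12 arrays, while Olig2 and Mobp were present on none. Of 5 astrocyte markers 3 were tested, with a median fitted log2 difference of -0.08 over all times and 1 of 3 above 0. Gfap and the brighter Slc1a3 probe set were present on all 12 arrays, and Slc1a2 was present on none. Of 5 microglia markers 1 was tested, Csf1r, present on 3 p25alpha and 2 mock arrays. The endothelial markers Pecam1, Kdr and Vwf, of a cell type known for Klf2 and Klf4, were present on no array. Of 6 neuronal markers, Gap43 was present on no array and the other 5 were tested. The median fitted difference of these over all times was 0.42 on the log2 scale, and 0 of 5 passed limma's adjusted p of 0.05. Their signals summed to 71.3 to 181.3 on p25alpha arrays and 59.5 to 156.6 on mock arrays, and the part of this in the results was not tested. Of 5 fibroblast and smooth muscle markers 3 were tested, with a median of -0.29, 0 of 3 above 0 and 0 of 3 past the threshold, and signals that summed to 139.3 to 386.7 on p25alpha arrays and 212 to 373.8 on mock arrays. Acta2, smooth muscle actin, was at -1.12 ± 0.31, lower in 5 of 6 pairs, and the oligodendrocyte lineage marker Nkx2-2 at -0.38 ± 0.10, lower in 6 of 6 pairs, and their part was not tested either. Actin 3′ over 5′ ratios, which can rise with RNA degradation, ran from 2.14 to 3.12 on the arrays of experiment 1, while those of experiment 2 ran from 4.65 to 7.05. Gapdh 3′ over 5′ ratios were not higher in experiment 2, at 0.90 to 1.03, against 0.97 to 1.09 in experiment 1. No probe set matched Tppp by symbol or RefSeq synonym, so the p25alpha transcript was not analysed here.

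The main comparison asked how transcripts differ in cells that make p25alpha beside alpha-synuclein. Ranked by limma's p over the 3 times, Klf10 and Klf6 came first in the family, followed by one Klf5 probe set, Klf4 and Klf3, all with higher values in p25alpha cells. Klf10 was 2.61-fold higher at 12 h and Klf6 1.59-fold. None of the 13 tested Kruppel-like factor probe sets passed an adjusted p of 0.05 in limma's fit with the experiment as a block (0 of 13 over the 3 times together, against 0.239% of all tested probe sets). The shares of all tested probe sets that passed were 0.0% at 8 h and 0.0571% at both 12 and 16 h. Klf10 and Klf6 did pass when 50 was added to the signals before log2 or when the variance estimate followed signal level, as given beside their values. Tested probe sets are the 19248 called present on at least 2 arrays, over which p-values were adjusted. All fold changes are p25alpha over mock, and ± after a log2 difference is its standard error.

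At an unadjusted p under 0.05, 5 of the 13 probe sets, one each for Klf3, Klf4, Klf5, Klf6 and Klf10, were higher in p25alpha cells over the 3 times and 0 were lower, against 8.14% higher and 5.86% lower among all tested probe sets. At 8 h the count was 0 of 13, where all probe sets gave 4.88%. At 12 h it was 4 of 13, against 9.33%, and at 16 h 3 of 13, against 8.66%. The median difference of the 13 was 0.14 at 8 h, 0.42 at 12 h and 0.40 at 16 h on the log2 scale. Over all tested probe sets it was 0.01, 0.02 and 0.01 at these times. These counts hold several probe sets of one gene, and the filter on present calls can favour probe sets with a high group. The genes were also listed with earlier results of these data known, so the counts are descriptions.

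Among the factors that bind Sin3A, Klf10 had the largest difference over the 3 times together. It was first known as an early gene induced by TGF-beta and restrains cell growth. Its single probe set, 1368650_at, read 428.8 and 766.2 in p25alpha cells at 8 h, 952.4 and 1091 at 12 h, and 1186 and 941.4 at 16 h. In mock cells it read 544.9 and 534.5 at 8 h, 391.2 and 390.1 at 12 h, and 542.4 and 539.9 at 16 h. All 4 p25alpha arrays of 12 and 16 h lay above all 4 mock arrays of these times, while at 8 h the p25alpha arrays fell on either side of the mock arrays. The mock arrays of a time differed by little between the experiments, and those of 12 h were the lowest of all.

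The difference in Klf10 over the 3 times was 0.81 ± 0.15 on the log2 scale, or 1.76-fold, with 5 of 6 pairs higher in p25alpha cells (limma adjusted p = 0.121). It was 0.09 ± 0.26 at 8 h, 1.38 ± 0.26 at 12 h (adjusted p = 0.245) and 0.97 ± 0.26 at 16 h (adjusted p = 0.408). In limma's test of whether the difference depends on time, Klf10 was the only one of the 13 under an unadjusted 0.05, against 3.96% of all probe sets, and its adjusted p was 0.999, while 0.0% of all probe sets passed adjustment. With an offset of 50 its adjusted p was 0.000401 over all times, 0.00135 at 12 h and 0.0284 at 16 h, where 2.42%, 0.307% and 0.39% of all tested probe sets passed. With trend and robust variance estimates these values of Klf10 were 0.000424, 0.00138 and 0.0326, where 2.18%, 0.296% and 0.333% of all passed. Without the experiment block the limma adjusted p was 0.47 over all times. Without the p25alpha array of experiment 2 at 8 h the difference at 8 h was -0.35, so its sign there rests on that array.

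By group mean, Klf10 was highest in p25alpha cells at 16 h (1064 ± 172.9, SD, n = 2) and at 12 h (1022 ± 98.2), and these groups overlapped. The p25alpha cells at 8 h (597.5 ± 238.6) overlapped with mock cells at 16 h (541.1 ± 1.77) and at 8 h (539.7 ± 7.35). Mock cells at 12 h came last, at 390.6 ± 0.778, with both arrays below those of every other group.

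**Figure D1:**
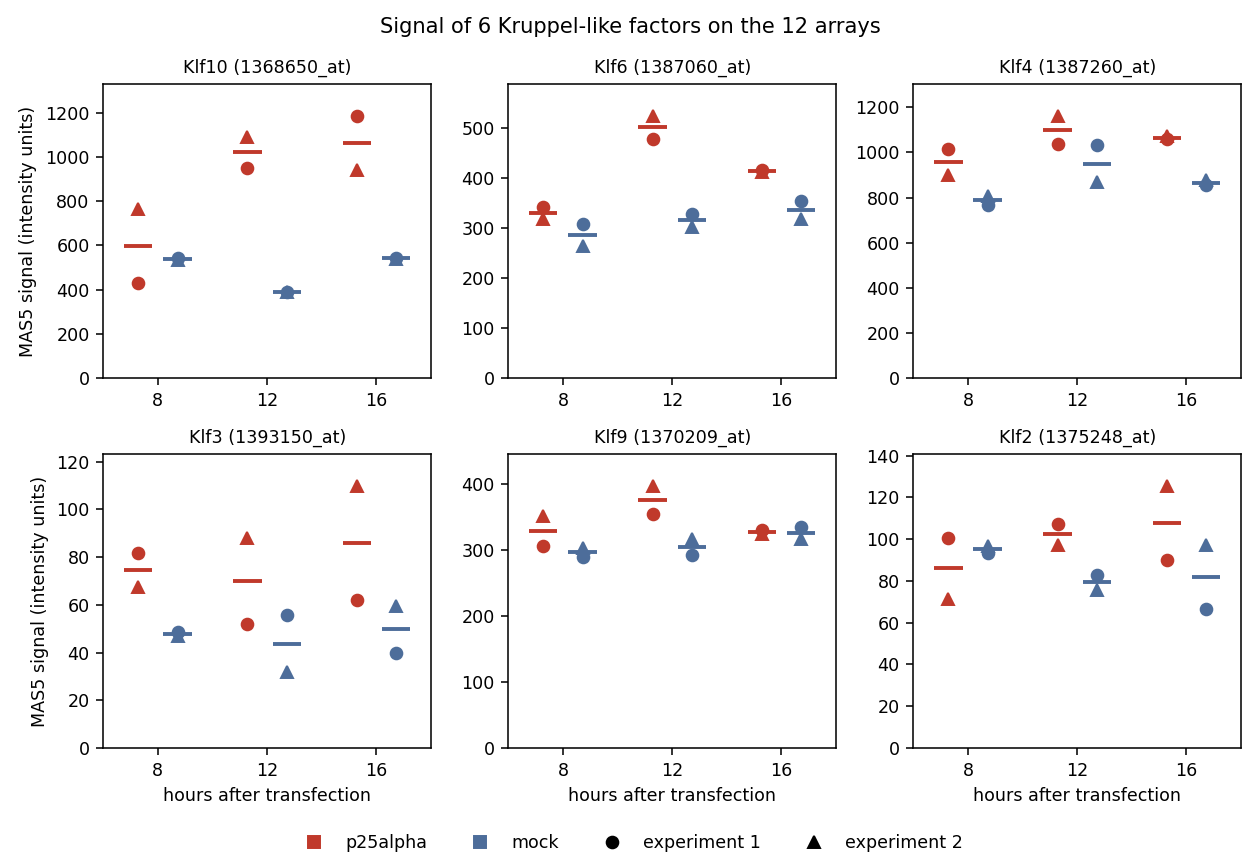
MAS5 signal (linear intensity units) of 6 Kruppel-like factors by hours after transfection, each by its brightest probe set, with p25alpha cells left of mock cells at each time. Each point is 1 array, circles are experiment 1 and triangles experiment 2, and bars are means of 2 arrays. Klf10 separates by group at 12 and 16 h, Klf6 and Klf4 at each time, and Klf9 is alike in both groups at 16 h.

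Klf9, induced by glucocorticoids and thyroid hormone, had its widest difference at 12 h and did not pass the test there. Its probe set 1370209_at read 305 and 351.2 in p25alpha cells at 8 h, 354.4 and 396.7 at 12 h, and 330.3 and 323.5 at 16 h. Mock cells gave 289.6 and 303.2, then 291.7 and 316.6, then 333.9 and 316.9 at the same times. The groups were apart at 8 and 12 h and overlapped at 16 h. The fitted differences in Klf9 were 0.14 ± 0.12, 0.30 ± 0.12 and 0.01 ± 0.12 at 8, 12 and 16 h, with a limma adjusted p of 0.522 at 12 h. The other 2 Klf9 probe sets, 1387882_at and 1395030_at, were absent on all arrays.

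Klf13, which is known for activating the chemokine gene Ccl5 in T cells, had no probe set by the rule. RefSeq lists RGD1565099 as a synonym of Klf13, and 3 probe sets carry that older name. The one present on all arrays, 1383013_at, read 79, 56 and 59.5 in p25alpha cells of experiment 1 at 8, 12 and 16 h, against 79.1, 91.8 and 72.1 in mock cells. In experiment 2 it read 52.9, 56.9 and 26.7 in p25alpha cells, against 53.6, 29.6 and 25.5 in mock cells. At 12 h the p25alpha array was thus lower in experiment 1 and higher in experiment 2, and the difference over all times was 0.00 ± 0.23. Of the other Klf13 probe sets, 1375177_at was present on the 6 arrays of experiment 1 and absent on those of experiment 2, and 1375203_at was present on none. At 12 h 1375177_at read 38.8 and 21.6 in p25alpha cells, against 35.4 and 1.7 in mock cells. Its fitted difference was 1.90 ± 0.99 there (limma adjusted p = 0.596), a value that includes the signal of 1.7, called absent, and 0.70 ± 0.57 over all times.

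Among the activators, Klf6 had the largest difference relative to its error over the 3 times. It is a growth-restraining factor that can induce Cdkn1a, the cell cycle inhibitor p21, and is induced early after injury in several tissues. Its probe set 1387060_at read 343.1 and 319 in p25alpha cells at 8 h, 478.5 and 524.7 at 12 h, and 416.2 and 411.6 at 16 h. Mock cells gave 308.1 and 264.1 at 8 h, 328.5 and 302.6 at 12 h, and 353.8 and 318.2 at 16 h. At each of the 3 times both p25alpha arrays lay above both mock arrays, with the widest gap at 12 h.

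Over the 3 times Klf6 differed by 0.40 ± 0.07 on the log2 scale, or 1.32-fold, higher in 6 of 6 pairs (limma adjusted p = 0.121). At 12 h the difference was 0.67 ± 0.13 (adjusted p = 0.259), at 8 h 0.21 ± 0.13 and at 16 h 0.30 ± 0.13. With an offset of 50 the adjusted p of Klf6 was 0.00952 over all times and 0.0351 at 12 h, and with trend and robust estimates it was 0.0111 and 0.0418. Without the experiment block it was 0.829 over all times. In the order of group means, p25alpha cells at 12 h (501.6 ± 32.7) and at 16 h (413.9 ± 3.25) came first. Mock cells at 16 h (336.0 ± 25.2), p25alpha cells at 8 h (331.1 ± 17.0) and mock cells at 12 h (315.6 ± 18.3) overlapped, and mock cells at 8 h (286.1 ± 31.1) overlapped with the last of them.

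Klf4, a factor of growth arrest and pluripotency, showed a smaller and steadier difference. Its probe set 1387260_at read 1014 and 902.1 in p25alpha cells at 8 h, 1039 and 1162 at 12 h, and 1060 and 1072 at 16 h. Mock cells gave 765.9 and 808.3, then 1032 and 867.7, then 854.3 and 876.6. Both p25alpha arrays lay above both mock arrays at each time, but at 12 h by less than the spread of the mock arrays. The difference over all times was 0.27 ± 0.08, or 1.20-fold, higher in 6 of 6 pairs (limma adjusted p = 0.24), and it was 0.28, 0.22 and 0.30 at 8, 12 and 16 h, each ± 0.14.

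Klf4 and Klf6 were the 2 of the 13 probe sets higher in 6 of 6 pairs, against 5.99% of all tested probe sets. Counting probe sets with both p25alpha arrays above both mock arrays gave 4 of 13 at 8 h, 6 of 13 at 12 h and 6 of 13 at 16 h, against 9.53%, 14.0% and 11.3% of all. With the 4 arrays a group of 12 and 16 h as one set it was 3 of 13, Klf4, Klf6 and Klf10, against 2.65%. The 6 at 12 h and the 6 at 16 h include the dim Klf2 1376569_at, with its p25alpha arrays of these times called absent. Those at 16 h also include Klf2 1394068_x_at, with its p25alpha array of experiment 2 called absent. Both p25alpha arrays lay below both mock arrays for 1 of 13 at 8 h, Klf2 1376569_at, against 8.39% of all. At 12 and 16 h this held for 0 of 13, against 9.61% and 9.01%.

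Klf2, which keeps endothelial cells and T cells quiescent, had 4 probe sets, of which 1375248_at was present on all arrays. It read 100.6 and 71.3 in p25alpha cells at 8 h, 107.2 and 97.4 at 12 h, and 89.8 and 125.5 at 16 h, against 93.2 and 96.9, 82.9 and 75.6, and 66.6 and 97.4 in mock cells. The groups were apart at 12 h and overlapped at 8 and 16 h. The difference over all times was 0.20 ± 0.15, with 5 of 6 pairs higher (limma adjusted p = 0.592). Of the dim Klf2 probe sets, 1376569_at was present on 2 p25alpha and 4 mock arrays and differed by 0.36 ± 0.19, while 1394068_x_at was present on 1 array of each and differed by 0.55 ± 0.53. All 3 had negative values at 8 h and positive ones at 12 and 16 h. For 1376569_at the arrays that gave the higher p25alpha signals at 12 and 16 h were called absent. The fourth, 1386041_a_at, was absent on all arrays.

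**Figure D2:**
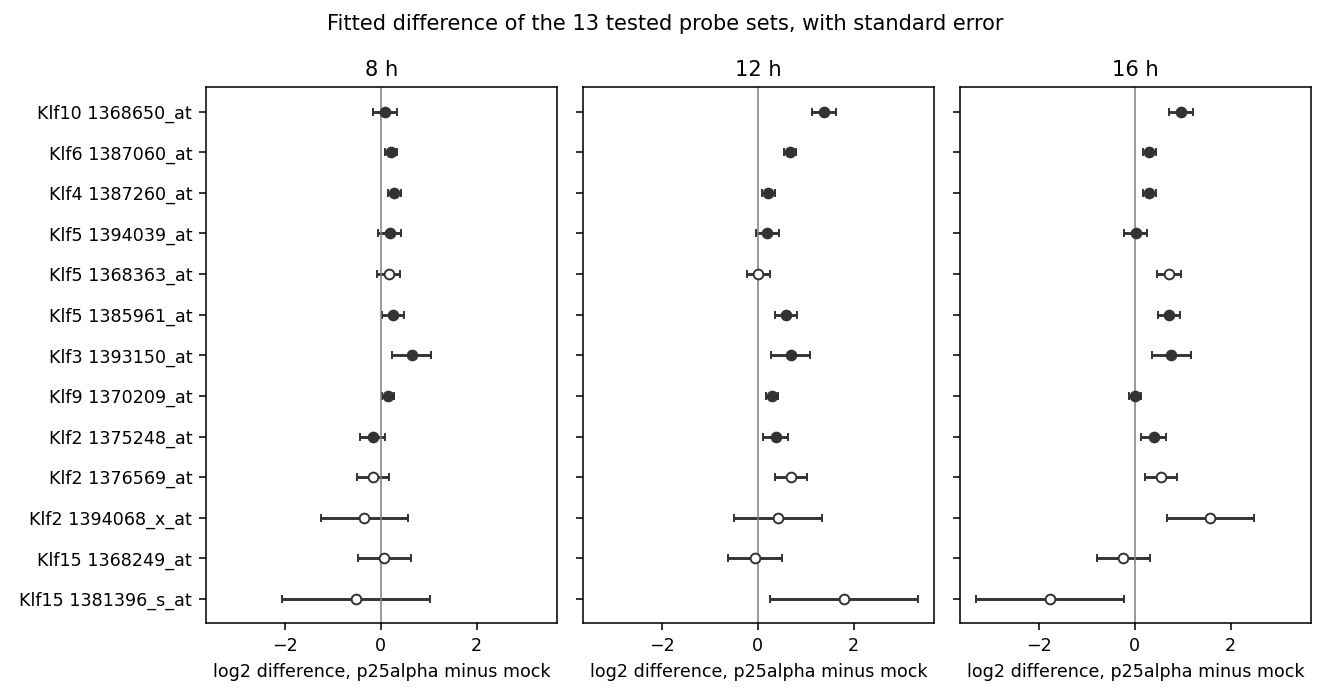
Fitted log2 difference, p25alpha minus mock, of the 13 tested Kruppel-like factor probe sets at 8, 12 and 16 h, with standard error bars from limma's fit with the experiment as a block. Filled points are probe sets present on all 12 arrays and open points the others. At 8 h the points of the probe sets present on all arrays lie between -0.17 and 0.64, Klf10 reaches 1.38 at 12 h, and Klf15 1381396_s_at, Klf2 1394068_x_at and Klf15 1368249_at have the widest errors.

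Klf5, which promotes growth in epithelia and smooth muscle, was read by 4 probe sets that did not move together. The probe set 1385961_at gave 16.3 and 43.2 in p25alpha cells at 8 h, 32.3 and 46.3 at 12 h, and 25.1 and 38.8 at 16 h, against 17.7 and 28.1, 19.5 and 34.3, and 12.9 and 28.5 in mock cells. It was higher in p25alpha cells in 5 of 6 pairs, by 0.51 ± 0.13 (limma adjusted p = 0.195). The brightest, 1394039_at, gave 33.8 and 72.3, 30.3 and 57, and 36.6 and 49.6 in p25alpha cells, against 33.5 and 56.5, 21.2 and 62.1, and 30.2 and 58.9 in mock cells. Its groups overlapped at every time, with a difference of 0.13 ± 0.14 (adjusted p = 0.705).

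The third Klf5 probe set, 1368363_at, gave 49.6 and 30.5, 37 and 26.3, and 41.6 and 24.3 in p25alpha cells, against 38 and 31.7, 43 and 22.4, and 30.6 and 12.3 in mock cells. It differed by 0.29 ± 0.14 over all times (limma adjusted p = 0.403) and by 0.71 ± 0.24 at 16 h (adjusted p = 0.52), while 1394039_at stood at 0.01 ± 0.24 there. At 12 h it stood at 0.01 ± 0.24 and 1385961_at at 0.58 ± 0.23. Over the 12 arrays, after each experiment's mean was subtracted, the 3 correlated with each other at only 0.07 to 0.28, a description over arrays that share their scaling. The fourth, 1398159_at, was absent on all arrays.

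The experiments also moved the Klf5 probe sets in opposite ways. Signals of 1394039_at were 1.94-fold and of 1385961_at 1.82-fold higher in experiment 2, each in 6 of 6 groups, while those of 1368363_at were 1.68-fold higher in experiment 1, also in 6 of 6. The actin 3′ over 5′ ratio was higher in experiment 2 and the Gapdh ratio was not, as given above, and their part in this was not tested. Averaged over the 6 groups, where opposite differences cancel, the experiments differed by less than 1.1-fold for Klf4, Klf6, Klf9 and Klf10. The average lay between 1.02-fold for Klf4 and 1.08-fold for Klf10. Within a group they could differ more, as with 428.8 and 766.2 for Klf10 in p25alpha cells at 8 h.

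**Figure D3:**
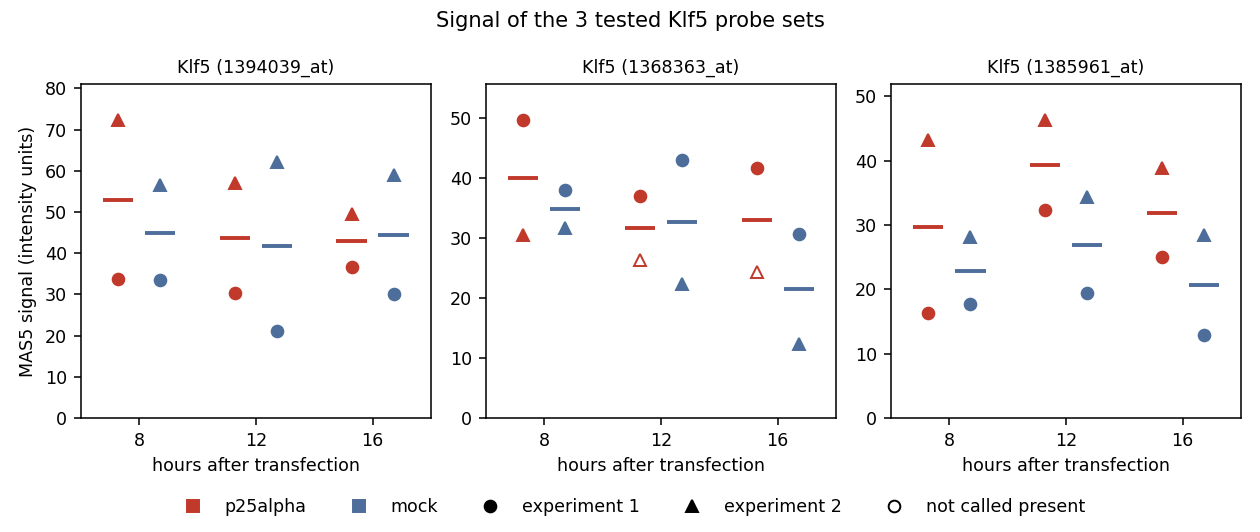
MAS5 signal (linear intensity units) of the 3 tested Klf5 probe sets by hours after transfection, with p25alpha cells left of mock cells. Circles are experiment 1, triangles experiment 2, open points arrays not called present, and bars means of 2 arrays. Triangles lie above circles for 1394039_at and 1385961_at, and below them for 1368363_at.

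Klf3 represses transcription through CtBP. Its probe set 1393150_at read 81.7 and 67.6 in p25alpha cells at 8 h, 51.8 and 88.1 at 12 h, and 62 and 109.9 at 16 h, against 48.4 and 46.8, 55.7 and 31.8, and 40 and 59.4 in mock cells. The groups were apart at 8 and 16 h, and at 12 h the p25alpha array of experiment 1 lay below its mock array. The difference over all times was 0.70 ± 0.23, or 1.62-fold, with 5 of 6 pairs higher (limma adjusted p = 0.274), and it was 0.64, 0.68 and 0.76 at the 3 times, each ± 0.41. The other Klf3 probe sets did not enter the test, since 1379880_at was present on 1 array and 1380656_at on none.

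Klf15, a glucocorticoid-induced regulator of glucose and amino acid metabolism, was at the limit of detection. Its probe set 1368249_at was present on the 2 mock arrays of 16 h and on no p25alpha array, 1381396_s_at on 1 p25alpha and 2 mock arrays, and 1381395_at on none. Signals of the tested pair ran from 4.9 to 23.7 for 1368249_at and from 0.6 to 20.3 for 1381396_s_at in p25alpha cells, against 7.4 to 19.6 and 0.5 to 14.1 in mock cells. Differences over all times were -0.08 ± 0.32 and -0.16 ± 0.89, and no direction can be read from them.

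The authors' deposited table also holds a change call and a signal log ratio (log2) for each pair of arrays, computed by the array software from both arrays together. By that table Klf10 was called increased in 5 of 6 pairs, with ratios of 0.8 in experiment 2 at 8 h, 1.3 in both experiments at 12 h, and 1.2 and 1.3 at 16 h. Klf4 was called increased in 4 pairs, counting a call of marginal increase in experiment 2 at 12 h. Klf6 was called increased in both pairs of 12 h with a ratio of 0.9 each, Klf3 in 2 pairs and the Klf15 probe set 1381396_s_at in 1. No member was called decreased in any of the 6. Calls of increase in both experiments, marginal ones included, fell on 0 of the 13 at 8 h, against 0.208% of all tested probe sets. At 12 h they fell on 2, Klf6 and Klf10, against 0.738%, and at 16 h on 2, Klf4 and Klf10, against 0.649%.

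The deposited ratios and the signals did not always point the same way. Over the 48 pairs of the 8 probe sets present on all arrays, the authors' deposited ratio was above 0 in 41 and below 0 in 3. Over the 78 pairs of all 13 tested probe sets it was above 0 in 56 and below 0 in 15. Among all tested probe sets, 43.9% to 51.1% of these ratios were above 0, depending on the time and experiment. The pairs share arrays and are not independent. In 6 of the 48 pairs the authors' deposited ratio had the opposite sign to the log2 ratio of the 2 signals. The widest of these was Klf10 at 8 h in experiment 1, where the p25alpha signal was lower, at -0.35 on the log2 scale, and the authors' deposited ratio was 0.4 with no change called. So the 8 h pair that sets the sign of Klf10 apart from the others depends on which of the deposited values is read. The low mock signals of Klf10 at 12 h also depend on it. For mock cells the authors' deposited ratios in experiments 1 and 2 were -0.3 and 0.1 from 8 to 12 h. From 12 to 16 h they were 0.3 and -0.2, and no change was called in either step.

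**Figure D4:**
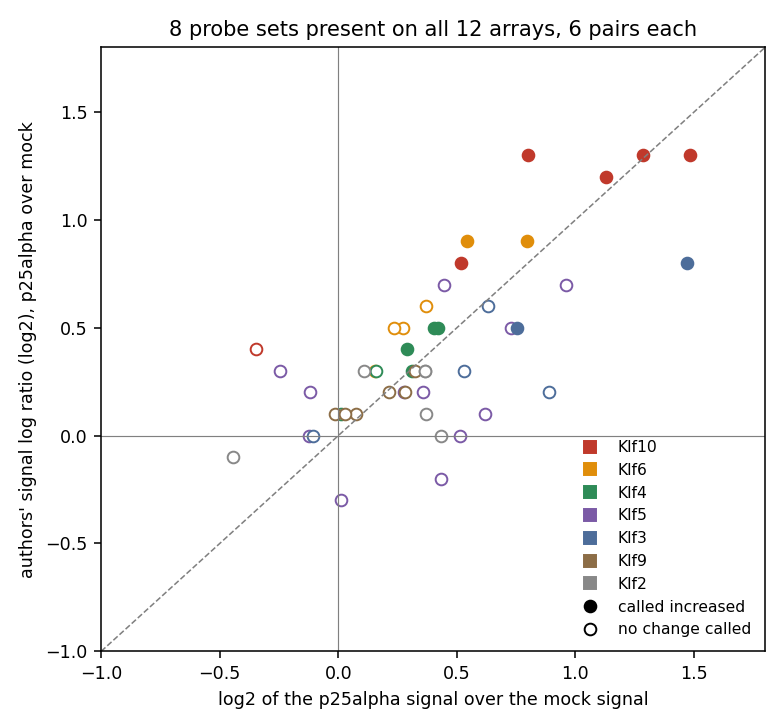
The authors' deposited signal log ratio (log2, vertical axis) against the log2 ratio of the 2 deposited signals (horizontal axis), both p25alpha over mock, for the 8 Kruppel-like factor probe sets present on all arrays in 6 pairs each. Filled points were called increased or marginally increased, and the dashed line marks equal values. Filled Klf10 points lie between 0.8 and 1.3 on the vertical axis, and the open Klf10 point at -0.35 and 0.4 is the pair of experiment 1 at 8 h.

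Time within each group was tested as well. In p25alpha cells Klf10 stood 0.83 ± 0.26 higher at 12 h and 0.88 ± 0.26 higher at 16 h than at 8 h, and Klf6 0.60 ± 0.13 and 0.32 ± 0.13 higher. They were the 2 of 13 under an unadjusted p of 0.05 at 12 h against 8 h, beside 5.55% of all probe sets, and at 16 h against 8 h, beside 7.41%, and neither passed adjustment. By the authors' deposited table, Klf10 and Klf6 were called increased from 8 to 12 h in p25alpha cells in both experiments, with ratios of 0.6 and 0.6 for Klf10 and 0.5 and 0.7 for Klf6. From 12 to 16 h in p25alpha cells, the authors' deposited table called Klf10 increased in experiment 1, at 0.3, and decreased in experiment 2, at -0.2. In experiment 2 it also called Klf6 and Klf9 decreased over that step, at -0.4 and -0.2. From 8 to 12 h in mock cells, the authors' deposited table called Klf4 increased in experiment 1, at 0.4, and unchanged in experiment 2, at 0.1. For these calls between times, the share of all tested probe sets was not counted. In mock cells at 16 h against 8 h the 2 of 13 under 0.05 were the dim Klf2 probe set 1376569_at, at -0.83 ± 0.33, and the Klf5 probe set 1368363_at, at -0.84 ± 0.24, beside 7.4% of all. At 12 h against 8 h in mock cells the count was 0 of 13, beside 5.21%. In each of these 4 contrasts 0 of 13 passed limma's adjusted p of 0.05, against 0.0052% of all probe sets for mock cells at 12 h against 8 h and 0.0% for the other three.

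Across the 12 arrays, with each experiment's mean subtracted, Klf6 and Klf9 had the most similar patterns of any 2 members (Pearson r = 0.843), followed by Klf4 and Klf6 (0.825), Klf6 and Klf10 (0.797) and Klf9 and Klf10 (0.725). Klf5 and Klf15, by their brightest probe sets, stood near or below 0 with Klf6, at -0.05 and -0.17. These are descriptions over arrays that share scaling and group differences. Because Klf6 and Klf9 were the closest pair, the 250 bases before their annotated starts are shown, from RefSeq's promoter table of build GRCr8, 5′ to 3′ along the gene's strand. Klf6 lies on the minus strand, with this window at chr17:69458479-69458728, and Klf9 on the plus strand, with its window at chr1:230126396-230126645. Capitals mark matches to the motifs searched, on both strands. These were the Kruppel box CACCC, the separate motif CACGCCC, the cyclic AMP response element TGACGTCA, the palindromic kappa B site of NF-kappa B and the CArG box of serum response factor.
Klf6: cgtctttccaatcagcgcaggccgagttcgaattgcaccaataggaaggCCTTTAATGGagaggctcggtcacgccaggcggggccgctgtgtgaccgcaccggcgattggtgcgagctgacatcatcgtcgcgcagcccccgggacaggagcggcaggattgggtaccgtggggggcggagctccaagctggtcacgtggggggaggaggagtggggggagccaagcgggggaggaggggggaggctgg
Klf9: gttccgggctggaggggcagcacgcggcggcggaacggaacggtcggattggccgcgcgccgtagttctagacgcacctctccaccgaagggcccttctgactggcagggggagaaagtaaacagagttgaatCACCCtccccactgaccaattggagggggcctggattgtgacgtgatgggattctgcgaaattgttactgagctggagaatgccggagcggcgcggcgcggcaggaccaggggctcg

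The Klf6 window held a CArG box, CCTTTAATGG, from 201 to 192 bases before the start, and none of the other motifs. A CArG box stood in 1.5% of all 33469 windows of this length. The Klf9 window held 1 CACCC, the core of the box that the family itself binds, and such a motif stood in 49.2% of all windows. No matched motif was common to both. A match is a description of letters and not a binding site, and no binding was measured. Klf5, with a window at chr15:82471831-82472080, held CACCC 2 times on the opposite strand. The table's starts for Klf3, Klf4 and Klf15 lay 8592, 590 and 363 bases inside the annotated gene and are not shown, and the table has no entry for Klf2, Klf10 and Klf13.

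By the same measure the patterns nearest to Klf10, among genes brighter than the median, were those of RGD1306734 (r = 0.944), Casp12 (0.939) and Myo1g (0.938), over the 12 arrays. Myo1g, an unconventional myosin, differed by 0.72 over all times, in 6 of 6 pairs, and Casp12, a caspase linked to the endoplasmic reticulum in rodents, by 0.29. Those nearest to Klf3 were Dbnl (0.926), LOC360618 (0.916) and Prpf40b (0.914). None of the 6 passed limma's adjusted p of 0.05, the lowest being 0.0858 for Myo1g.

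Lists of the wider family, its regulators and its reported targets were read in the same fit. Of the other Kruppel-like factor genes, 3 of 8 were tested, Klf7, Klf11 and Klf16, and 0 passed in any direction, as was so for 3 tested SP factors, 4 tested members of the ERK5 and MEF2 route that induces Klf2 and Klf4, and 10 tested cofactors and ligases, against 0.239% of all tested probe sets over the 3 times. For the brightest probe set of each gene over all times, Klf11 stood at 0.27 ± 0.17, Klf7 at -0.18 ± 0.11 and Klf16 at 0.13 ± 0.13. The other Klf11 probe set, dim and present on 1 p25alpha and 1 mock array, pointed the opposite way. It stood at -1.69 ± 0.57 (limma adjusted p = 0.274) and was higher in p25alpha cells in no pair. The other Klf7 probe sets stood at -0.02 and 0.14. The corepressor Sin3a stood at -0.34 ± 0.12 (limma adjusted p = 0.287), with its other 2 probe sets at -0.19 and -0.10, Fhl3, a partner of Klf3, at 0.19 ± 0.09 and the deacetylase Hdac2 at -0.18 ± 0.07. By brightest probe set, the widest values in the other 2 lists were those of Mapk7, the ERK5 kinase, at -0.40 ± 0.26 and of Sp3 at 0.18 ± 0.17. A dimmer Sp3 probe set stood at 1.02 ± 0.42 (limma adjusted p = 0.349).

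Among reported target genes of the family, 1 of 10 tested was called over the 3 times and it rose, against 0.239% of all tested probe sets. This was Txnip, the inhibitor of thioredoxin, with signals of 113.6 to 478.7 in p25alpha cells and 54.2 to 110.1 in mock cells, higher in 6 of 6 pairs (limma adjusted p = 0.00319). Txnip was called present on 6 p25alpha arrays and on 1 of 6 mock arrays, so it entered the test through the group where it is high, and its fitted log2 difference of 1.88 ± 0.13 is not an exact fold. Col1a1, a collagen chain, stood at -0.29 ± 0.33. Cdkn1a, the target of Klf6 and Klf4, singled out after its values were seen, gave 0.54 ± 0.16 by 1387391_at (adjusted p = 0.233) and 0.00 ± 0.11 by its brighter 1388674_at. The median of the 10 was -0.01. Of 7 tested genes of glucocorticoid and thyroid hormone signalling, shared with Klf9 and Klf15, 0 were called, against the same 0.239%. By brightest probe set their median was 0.20, with 5 of 7 above 0, against 52.7% of all tested probe sets. The highest was Dusp1, a phosphatase of MAP kinases, at 0.86 ± 0.12 in 6 of 6 pairs (adjusted p = 0.0599). A dimmer Dusp1 probe set, present on 1 p25alpha and 3 mock arrays, stood at 0.66 ± 0.53, higher in 3 of 6 pairs (limma adjusted p = 0.613). Sgk1, a kinase induced by glucocorticoids, stood at 0.22 ± 0.07 and Thra, a thyroid hormone receptor, at 0.22 ± 0.11 by its brightest probe set, each higher in 6 of 6 pairs, with adjusted p-values of 0.278 and 0.436 from limma. The other 2 Thra probe sets stood at 0.02 and -0.37.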

How the data were processed

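Total RNA was labelled as biotinylated cRNA by the Affymetrix protocol, per the labels' protocols. The deposited intensity values are MAS5 signals, per the submitters' processing notes, with the version not given in the sources used here, and their trimmed mean was 150.1 on each array. Detection calls, change calls and signal log ratios (log2) were also deposited, per the file headers. Arrays were grouped by title, with the experiment number as replicate. Signals were floored at 0.1 and put on the log2 scale, 57 control probe sets were left out, and tests covered the 19248 probe sets with a present call on 2 or more arrays. MAS5 leaves low signals noisy on that scale. The fit was limma 3.58.1 (R 4.3.3), lmFit and eBayes with 6 group means and the experiment as a block (5 residual degrees of freedom), with Benjamini-Hochberg adjustment over all tested probe sets and a threshold of 0.05, and it was tested on simulated data.

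The block was used because the comparison is paired by experiment number. For every one of the 15 pairs of groups, arrays with the same number deviated together (correlations of 0.471 to 0.569), and the first principal component, with 42% of the variance, separated the experiments. The alternatives were no block, quantile normalization, median centring, no filter and a filter of 6 arrays, an offset of 50, trend and robust variance estimates, and leaving out each array. All member probe sets are described. Genes outside the family are named if called, if among the 3 largest differences of a list, with 1 listed gene not reported here, or as the 3 nearest patterns of the 2 members with the largest difference by the brightest probe set (Klf10 and Klf3). The members and lists were chosen with earlier results of these data known. Symbols come from the deposited annotation, with older names updated through RefSeq's gene table of build GRCr8, used for names only. In the files' own annotation 20122 probe sets had 1 symbol, 333 several and 10641 none.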

Additional observations from a re-analysis of the deposited data

How the results depend on the processing

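The count of Kruppel-like factor probe sets past an adjusted p of 0.05 was 0 of 13 in the 7 comparisons of the main fit and under each alternative but the offset of 50 and the trend and robust estimates, with 10 of the 13 left to test under the filter of 6 arrays. Under each of these it was 2 over all times, 2 at 12 h and 1 at 16 h, Klf10 and Klf6 and then Klf10 alone. All tested probe sets over all times gave 466 calls (2.42%) with the offset and 419 (2.18%) with trend and robust, against 46 (0.239%) in the main fit, and the cause was not tested. Without the replicate block 0 of 13 passed and all tested probe sets gave 4 calls. Leaving out each array in turn gave 0 in each comparison, and the smallest adjusted p over all times ran from 0.0649 to 0.273. Of the 52 single effects (13 probe sets over all times and at 3 times), 18 changed sign at least once. Quantile normalization turned Klf5 1394039_at at 16 h to -0.0798 and Klf5 1368363_at at 12 h to -0.13. Median centring turned the first to -0.00683 and Klf9 at 16 h to -0.0145. The offset turned these Klf5 effects to -0.00901 and -0.0103, and Klf15 1368249_at to 0.00233 over all times and 0.0247 at 12 h. Leaving out 1 array turned effects at 8 h with ranges of -0.35 to 0.52 for Klf10, -0.50 to 0.16, -0.38 to 0.0662 and -1.56 to 0.86 for Klf2 1375248_at, 1376569_at and 1394068_x_at, -0.13 to 0.46 and -0.075 to 0.58 for Klf5 1368363_at and 1385961_at, and -0.66 to 0.80 and -1.06 to 0.0337 for Klf15 1368249_at and 1381396_s_at. At 12 h the ranges were -0.31 to 1.15 for Klf2 1394068_x_at, -0.16 to 0.56 and -0.15 to 0.16 for Klf5 1394039_at and 1368363_at, and -0.76 to 0.63 and -0.68 to 4.28 for Klf15 1368249_at and 1381396_s_at. At 16 h they were -0.29 to 0.32 for Klf5 1394039_at, -0.0827 to 0.0968 for Klf9 and -0.81 to 0.33 for Klf15 1368249_at, and over all times -0.32 to 0.17 and -0.99 to 0.66 for Klf15 1368249_at and 1381396_s_at. Over all times each of the 11 probe sets with a positive effect in the main fit stayed positive under every alternative in which it was tested. The ranges were 0.67 to 0.96 for Klf10, 0.35 to 0.44 for Klf6 and 0.22 to 0.31 for Klf4. The lowest value among the 11 was 0.012, for Klf5 1394039_at. A group left with 1 array was assumed to vary like the others.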
